A study of Mus musculus with 6 samples.

Results

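The 43 DNA replication genes described here encode the machinery that copies the genome in S phase, from origin recognition to the supply of nucleotides. They were taken as a fixed list of gene symbols, 43 of the 21951 protein-coding genes of GENCODE M21 on GRCm38, and the rule that selects them uses no measured value. For each gene, the ATAC-seq peaks within 3 kb of any of its transcript starts (promoter peaks) and from over 3 kb to 20 kb of the nearest one (distal neighbours) were collected in 6 libraries. ATAC-seq uses the Tn5 transposase to cut and tag accessible DNA, so a peak is a stretch of chromatin with more tagged fragments than its surroundings.

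The libraries came from adult neural stem cell (NSC) cultures of the mouse subependymal zone (SEZ), the germinal layer of the lateral ventricle wall. All of them carried, on both alleles, a germline deletion of the *Sox2* enhancer *Srr2* made with CRISPR-Cas9 (*Srr2* del/del; *Sox2* encodes a stem cell factor), and came from animals of 10 weeks. The 3 PROLIF libraries (replicates 1, 2 and 4) were proliferating cells after 2 days in vitro (DIV) with mitogen, and the 3 DIFF libraries (replicates 1, 2 and 4) were early differentiating cells after 2+1 DIV, that is 1 further day without mitogens in 2% FBS. Each library was made from 50000 cells. Every cell analysed carried the deletion and wild-type cultures were not analysed here, so the comparison is between the states within one genotype. The mutation is present in all cells of the animal from the germ line on, and the study derived it in more than 1 founder, which the labels do not tell apart. A figure legend of the study describes the 3 replicates as independent and counts them as cultures. The labels number them without saying which animal or founder each came from.

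Replication begins when the origin recognition complex (ORC), CDC6 and CDT1 load the MCM2-7 helicase onto DNA in G1, a step held back by geminin. In S phase CDC45 and the GINS complex turn MCM2-7 into a moving helicase, primase and the polymerases copy both strands around the sliding clamp PCNA, and FEN1 and DNA ligase I join the lagging strand fragments. Many of these genes are known targets of E2F transcription factors, which bind their promoters and, with the retinoblastoma family, couple their transcription to the decision to divide. Removal of mitogens takes cultured neural progenitors out of the cell cycle, and the comparison asks whether the accessible regions at these genes differ between the dividing cells and those 1 day after mitogen removal.

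The lists held 60006 to 82741 peaks in PROLIF and 70728 to 88039 in DIFF. No read totals were used, and depth was read from the background pileup that the fold enrichment and p-value of the peaks imply, which was 2.85 to 2.97 reads in PROLIF, 3.63 and 2.96 in DIFF replicates 1 and 2 and 6.01 in DIFF replicate 4, the deepest library. Of the neural stem and progenitor markers, *Sox2*, *Nes*, *Vim*, *Slc1a3*, *Fabp7*, *Olig2* and *Egfr* had a promoter peak in all 6 libraries. Of the markers of other cells, *Dcx* (neuron), *Sox10* (oligodendrocyte), *Cx3cr1* (microglia), *Cdh5* and *Cldn5* (endothelium) had no promoter peak in any library and *Mog* had one in 1 library, while a promoter peak in all 6 was found for 2 of 4 neuron, 2 of 4 oligodendrocyte, 2 of 4 microglia and 1 of 4 endothelium markers. *Pecam1*, an endothelium marker, had a promoter peak in the 3 PROLIF libraries and in no DIFF library. Among the marker genes reported here that entered the fits described below, limma called 1, the microglia marker *P2ry12*, with a lower fold enrichment in DIFF (log2 difference -0.79 ± 0.14 SE, adjusted p = 0.0394). The part of other cells in the results was not tested.

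E2F-type sequences were frequent in the promoters of the replication genes. The windows searched were RefSeq promoters of GRCm38.p6, from 250 bases before to 50 after a start, and held 35 of the 43 genes. *Gins4*, *Mcm4*, *Rfc2*, *Gmnn*, *Pole*, *Prim2*, *Gins1* and *Gins2* had no entry. The letters TTTCCCGC or TTTCGCGC or TTTGCCGC or TTTGGCGC, on either strand and with overlapping matches counted, were found in 14 of the 35 genes (40%), against 3.32% of 16522 protein-coding genes with a window and 4.52% of the 10992 among them with a promoter peak in all 6 libraries. They were found at *Mcm3*, *Mcm5*, *Mcm6*, *Mcm7*, *Cdc6*, *Cdt1*, *Orc1* and *Orc3* of the licensing genes, at *Gins3*, *Rfc3*, *Pold1*, *Pold3*, *Pole2* and *Lig1*, and at none of the nucleotide supply genes. The sequences below are shown for the MCM gene, and for the gene of each other role that has any, with most such matches (ties by percentile, a rank defined below). Each runs 5′ to 3′ in the direction of the gene, with E2F-type matches in capitals.
*Mcm6* (chr1:128359656-128359955, minus strand): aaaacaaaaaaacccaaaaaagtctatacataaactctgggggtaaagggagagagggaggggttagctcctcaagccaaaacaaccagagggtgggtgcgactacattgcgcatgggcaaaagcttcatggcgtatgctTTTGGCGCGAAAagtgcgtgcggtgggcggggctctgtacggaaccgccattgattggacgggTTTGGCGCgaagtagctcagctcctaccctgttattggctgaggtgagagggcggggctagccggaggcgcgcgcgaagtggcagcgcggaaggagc
*Orc1* (chr4:108579204-108579503, plus strand): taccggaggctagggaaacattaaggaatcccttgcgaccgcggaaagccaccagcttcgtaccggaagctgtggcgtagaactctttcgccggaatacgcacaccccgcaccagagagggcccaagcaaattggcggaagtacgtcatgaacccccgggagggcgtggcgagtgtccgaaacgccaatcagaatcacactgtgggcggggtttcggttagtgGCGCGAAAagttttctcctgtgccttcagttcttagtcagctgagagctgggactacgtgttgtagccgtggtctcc
*Gins3* (chr8:95633309-95633608, plus strand): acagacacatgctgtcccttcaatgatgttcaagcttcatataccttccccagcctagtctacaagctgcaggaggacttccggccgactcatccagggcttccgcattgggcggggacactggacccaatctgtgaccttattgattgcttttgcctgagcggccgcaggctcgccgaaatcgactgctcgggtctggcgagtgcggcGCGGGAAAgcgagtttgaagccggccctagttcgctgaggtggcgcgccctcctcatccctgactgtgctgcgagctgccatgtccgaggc
*Rfc3* (chr5:151651159-151651458, minus strand): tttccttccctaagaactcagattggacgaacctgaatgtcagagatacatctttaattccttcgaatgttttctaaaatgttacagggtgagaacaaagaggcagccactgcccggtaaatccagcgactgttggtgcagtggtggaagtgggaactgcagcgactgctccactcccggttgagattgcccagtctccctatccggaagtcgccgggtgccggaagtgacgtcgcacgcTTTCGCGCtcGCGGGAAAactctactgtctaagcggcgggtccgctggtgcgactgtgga
*Pold1* (chr7:44548766-44549065, minus strand): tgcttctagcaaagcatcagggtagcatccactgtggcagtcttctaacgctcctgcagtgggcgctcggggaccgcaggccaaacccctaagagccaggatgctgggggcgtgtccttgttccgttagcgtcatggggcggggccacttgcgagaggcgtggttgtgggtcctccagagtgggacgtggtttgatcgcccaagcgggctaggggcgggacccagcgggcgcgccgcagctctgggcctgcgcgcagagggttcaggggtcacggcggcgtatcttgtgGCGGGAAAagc
*Lig1* (chr7:13278576-13278875, plus strand): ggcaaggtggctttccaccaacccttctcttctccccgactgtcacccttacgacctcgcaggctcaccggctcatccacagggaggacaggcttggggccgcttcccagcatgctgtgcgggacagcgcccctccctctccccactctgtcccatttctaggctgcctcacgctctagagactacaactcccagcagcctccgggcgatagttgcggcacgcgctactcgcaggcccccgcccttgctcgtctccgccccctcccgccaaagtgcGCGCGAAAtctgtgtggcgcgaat

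With the start base as position 0, the matches in *Mcm6*, an MCM2-7 subunit, began at -110, -106 and -47, and those at -110 and -106 overlap. Those of *Rfc3*, a subunit of the clamp loader, began at -10 and 0. The single matches of *Orc1*, the largest ORC subunit, and *Gins3* began at -27 and -41, upstream of the start, and those of *Pold1*, the catalytic subunit of polymerase delta, and *Lig1*, DNA ligase I, at 39 and 26, downstream of it. Each of the 6 windows was overlapped by a peak in all 6 libraries, and the windows of *Mcm6*, *Orc1*, *Gins3*, *Pold1* and *Lig1* lay wholly inside a peak in each of them, while that of *Rfc3* did so in 2. Over the 35 genes, a window was overlapped by a peak in all 6 libraries for 33 and wholly covered for 22. The exceptions were *Cdc6*, where the peak of 1 library stopped short of the RefSeq window, and *Tk1*, which is described with the nucleotide supply genes.

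CCAAT, the letters bound by NF-Y, was in 62.9% of the 35 genes, against 42.1% of protein-coding genes and 42.8% of those open in all 6 libraries. GGGCGG, an SP factor motif, was in 74.3%, against 51.0% of protein-coding genes and 67.7% of those open in all 6 libraries. TTTGAA, the CHR element of genes expressed in G2 and mitosis, was in 14.3% of the replication genes, 17.6% of protein-coding genes and 14.0% of those open in all 6 libraries, but in 76.5% of 17 mitosis genes with a window. TATAAA was in 8.57%, against 14.3% of protein-coding genes and 8.72% of those open in all 6 libraries. TGCGCA, an NRF1 motif, was in 14.3%, against 11.3% and 15.3%. A further list of 32 replication genes, such as polymerase alpha, the CAF-1 subunits and the firing kinase genes *Cdc7* and *Dbf4*, had 26 with a window, of which 26.9% held an E2F-type match and 46.2% held TGCGCA. A match is only a run of letters, and binding was not measured.

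**Figure D1:**
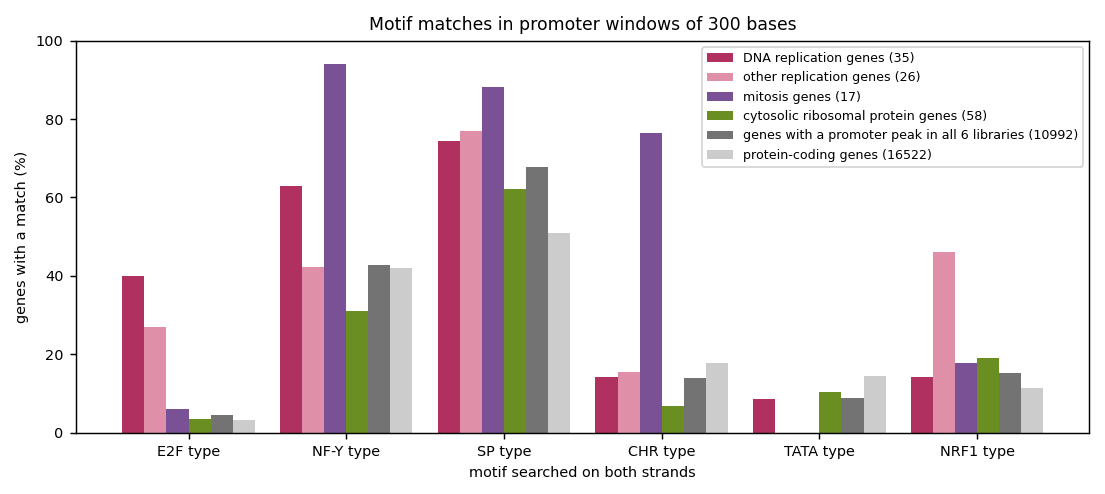
Share of genes (%, vertical axis) with at least 1 match to each of 6 motifs in a promoter window of 300 bases, for 6 gene lists whose number of genes with a window is in the key. The E2F-type share is 40% in the replication genes against 3.32% of protein-coding genes, and the CHR share is highest, at 76.5%, in the mitosis genes.

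Replication gene promoters were open in both states. All 43 genes had a promoter peak in all 6 libraries, beside 64.4% of the 21951 protein-coding genes. No replication gene had a promoter peak in all PROLIF and no DIFF libraries (0.228% of all genes) or in all DIFF and no PROLIF libraries (0.374%). These counts also stood at 43, 0 and 0 with peaks of q at most 0.01, with lists cut to the same length, with a window of 1 kb and without any 1 library. The cells were sampled in bulk, so fewer cells with an open site and a site less open in each cell cannot be told apart.

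The promoter peaks were strong and rather narrow. Strength was expressed as a percentile, the rank of a peak by its −log10 p among all peaks of its own library. The scale still moves with the library, as the medians below over genes open in all 6 libraries show. A higher percentile in DIFF is therefore to be read beside the values of all genes. The median over the 43 genes was 92.3, 90.7 and 91.4 in PROLIF replicates 1, 2 and 4 and 92.8, 92.6 and 95.5 in DIFF replicates 1, 2 and 4. Over the 14139 genes with a promoter peak in every library the same medians were 86.8, 83.3 and 81.5, and 86.8, 86.3 and 89.0. The replication genes therefore lay 5.54 to 9.87 percentile points above that level in each library. In each list 22 to 29 of the 43 peaks were above the 90th percentile, with the lowest number in PROLIF replicate 4 and the highest in DIFF replicate 4. Of the 14139 genes, 30.7% to 46.7% were above it, with the lowest and highest share in the same libraries.

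The median fold enrichment, the ratio of the signal at the summit to the local background, was 14.9, 12.5 and 11.6 in PROLIF and 12.3, 14.7 and 13.7 in DIFF, or 1.28 to 1.35 times the median of the 14139 genes in the same library. The median width was 818, 822 and 704 bp in PROLIF and 762, 766 and 785 bp in DIFF, which is 0.880 to 0.944 times that of the 14139 genes. The ratio of widths was 0.917, 0.944 and 0.923 in PROLIF and 0.902, 0.887 and 0.880 in DIFF, and the states did not overlap in it. The summit of the peak chosen for each gene, the one nearest to a start, was placed by its median position over the libraries. It lay upstream of the start used in 37 of 43 genes (86.0%, against 68.9% of the 14139), and within 300 bp upstream in 34 (79.1%, against 55.7%). Where a peak covered more than 1 start, the start of lowest coordinate was used, the most downstream one on the minus strand. The *Pcna* summit at -671 bp in PROLIF replicate 1 was counted from such an internal start. The shares depend on this rule and on strand, and are not read as a trait of the replication genes. A width differing more than 1.5-fold between the widest and the narrowest library was seen in 12 replication genes (27.9%) and in 43.2% of the 14139 genes.

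**Figure D2:**
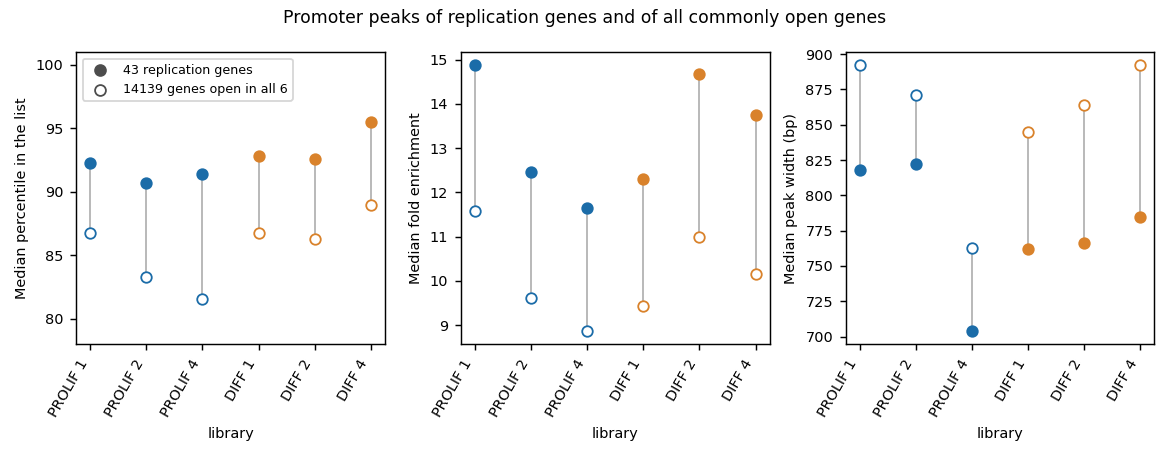
Median percentile, fold enrichment and width (bp) of the promoter peaks in each library, with filled points for the 43 replication genes and open points for the 14139 genes with a promoter peak in all 6 libraries (blue PROLIF, orange DIFF; vertical axes do not start at 0). In all 6 libraries the filled point lies above the open one for percentile and fold enrichment and below it for width.

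Of the 43 genes, 14 (32.6%) had a protein-coding neighbour that starts within 1 kb on the opposite strand, pointing away, against 11.0% of all protein-coding genes and 16.2% of those open in all 6 libraries. The pairs were *Mcm4* with *Prkdc*, *Mcm7* with *Ap4m1*, *Cdc45* with *Ufd1*, *Gins1* with *Abhd12*, *Orc1* with *Prpf38a*, *Orc3* with *Rars2*, *Orc4* with *Mbd5*, *Orc6* with *Vps35*, *Rpa1* with *Smyd4*, *Rpa3* with *Umad1*, *Pole* with *Pxmp2*, *Fen1* with *Tmem258*, *Lig1* with *Zswim9* and *Tk1* with *Afmid*. The starts were 13 bp apart at *Orc3* and 659 bp apart at *Gins1*, the closest and the most distant. Promoter peaks of these genes cannot be assigned to 1 gene of the pair.

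Between the states, no replication gene passed the test by width or by fold enrichment. Log2 width and log2 fold enrichment of the chosen peak were centred on the median of each library and compared with limma over all 14139 genes (Benjamini-Hochberg adjusted p below 0.05). The fit called 0 of 43 replication genes wider in DIFF (0.0637% of all genes), 0 narrower (0.113%), 0 higher in fold enrichment (0.156%) and 0 lower (0.396%). At an unadjusted limma p below 0.05 there were 6 replication genes narrower in DIFF (*Fen1*, *Rrm2*, *Gins2*, *Cdc45*, *Orc1* and *Mcm5*) and 0 wider, beside 5.01% and 4.41% of all genes. By fold enrichment there were 4 lower (*Prim1*, *Gmnn*, *Cdc6* and *Mcm7*) and 1 higher (*Gins4*), beside 7.21% and 5.98% of all genes. The smallest adjusted p by limma was 0.312 for width, at *Fen1*, and 0.0736 for fold enrichment, at *Prim1*.

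In direction, widths leaned towards narrower. The median difference of the 43 genes, DIFF minus PROLIF, was -0.13 on the log2 width scale, with 31 of 43 narrower in DIFF (72.1%), beside a median of -0.01 and 52.6% narrower over all genes tested. The states did not overlap in centred width for 9 replication genes that were narrower in DIFF, 20.9% of the 43 against 8.72% of all genes, and for 0 that were wider, against 6.99%. Without any 1 library the narrower genes numbered 10 to 13, while the share of all genes was also higher, at 13.1% to 15.8%. These 9 were *Mcm5*, *Mcm6*, *Cdc45*, *Gins2*, *Gins4*, *Orc1*, *Rfc5*, *Fen1* and *Rrm2*. The difference for fold enrichment was smaller, with a median of 0.04 on the log2 scale and 28 of 43 higher (65.1%), beside -0.01 and 47.8% over all genes, and it moved to 0.013 without DIFF replicate 1 and to 0.061 without DIFF replicate 4. By percentile the states did not overlap for 12 replication genes that were higher in DIFF, 27.9% against 25.1% of all genes, and for 2 that were lower, 4.65% against 4.31%, which is close to the level of all genes.

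Lists from the same program and from outside it were read in the same fits. The 32 further replication genes all had a promoter peak in all 6 libraries, and so did every gene of the other lists in this paragraph. The 32 genes had a median log2 width difference of -0.09, with 23 of 32 narrower in DIFF. The medians were -0.07 for 13 E2F and RB family genes and -0.12 for 20 mitosis genes, of which 10 and 16 were narrower. The 79 cytosolic ribosomal protein genes, a reference of promoters used by every cell, had the opposite sign, with a median of 0.12 and 67 of 79 wider in DIFF. In these 4 lists limma called 1 gene, *Rnaseh2a*, a subunit of the ribonuclease that removes RNA from DNA, which had a lower fold enrichment in DIFF (log2 difference -1.45 ± 0.17 SE, adjusted p = 0.00912). The median over genes of the mean percentile was 92.4 in the 43 replication genes, beside 85.0 over all genes tested. It was 92.8 in the E2F and RB family genes, 90.5 in the mitosis genes and 88.9 in the further replication genes. In the ribosomal protein genes it was 86.1. High ranks were thus also found in the related lists. These lists were described and not tested as sets.

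**Figure D3:**
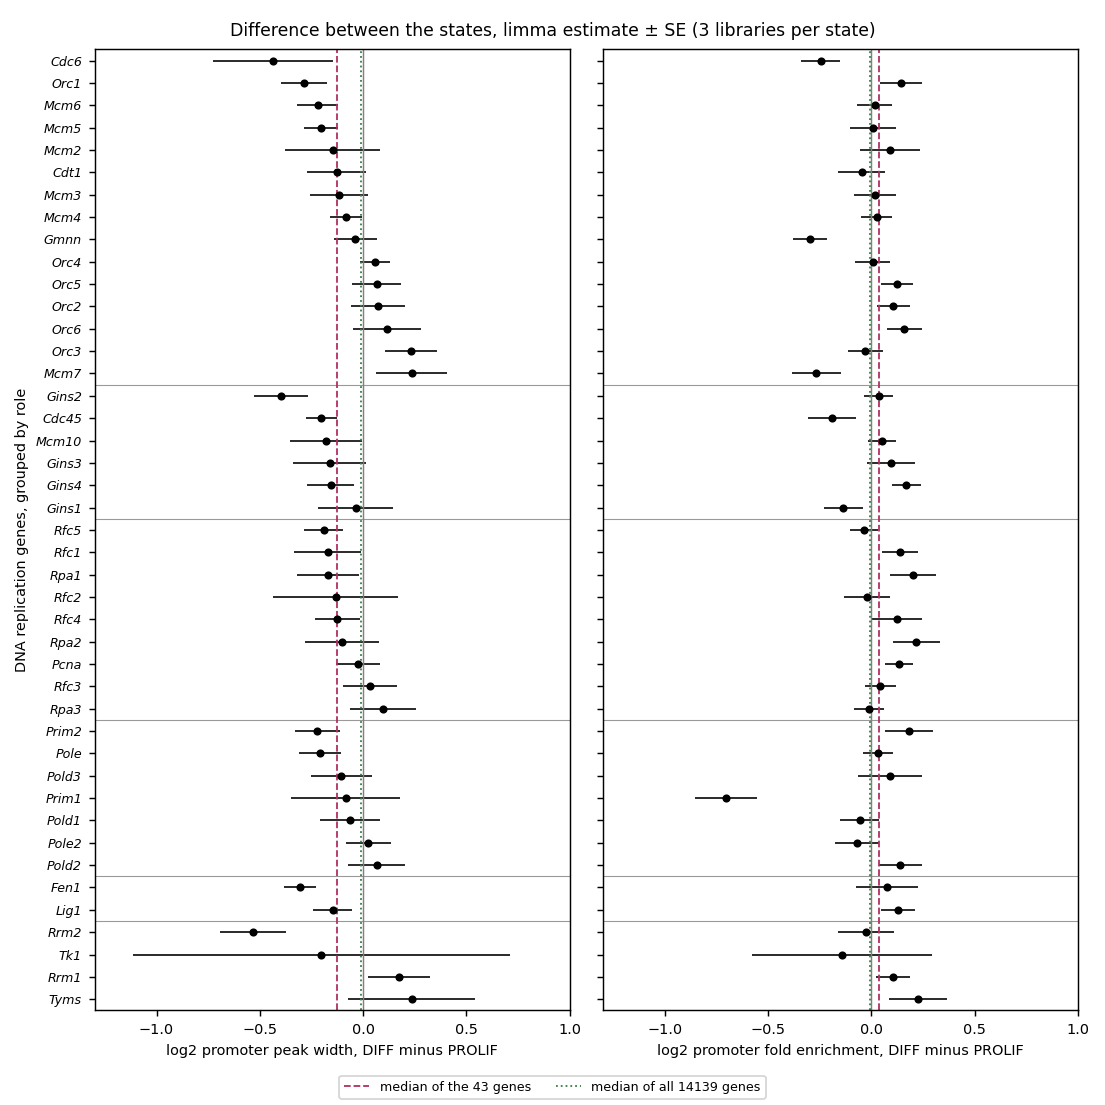
Difference between the states (DIFF minus PROLIF, horizontal axes) in log2 promoter peak width and log2 fold enrichment for each of the 43 genes, as limma estimate ± SE with 3 libraries per state, grouped by role. Most width estimates lie left of 0, with *Rrm2* farthest at -0.53 and *Tk1* with the widest error, and in fold enrichment *Prim1* stands farthest left at -0.71.

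Licensing genes, 15 in all, held both the strongest and some of the thinnest promoter peaks. ORC marks origins, CDC6 and CDT1 bring the helicase, geminin (*Gmnn*) blocks CDT1, and MCM2 to MCM7 form the helicase ring. *Mcm3* and *Mcm4* ranked above all other replication genes. The percentile of *Mcm3* was 99.9, 99.7 and 99.7 in PROLIF and 99.8, 99.9 and 99.7 in DIFF, with fold enrichments of 17.2 to 22.4. That of *Mcm4* was 99.7, 99.6 and 99.3 in PROLIF and 99.7, 99.7 and 99.7 in DIFF. Both genes were thus near the top of every list in either state. *Mcm5* and *Mcm6* followed, at percentiles of 95.7 to 98.9 and 95.2 to 98.4.

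The widths of *Mcm5* were 1173, 1306 and 1145 bp in PROLIF and 1026, 1100 and 1117 bp in DIFF (log2 difference -0.20 ± 0.08 SE, limma adjusted p = 0.502). Those of *Mcm6* were 943, 982 and 911 bp in PROLIF and 859, 766 and 891 bp in DIFF (-0.22 ± 0.10 SE, adjusted p = 0.572). Every DIFF value of both genes was below every PROLIF value, though neither passed the test. *Mcm2* had a much smaller peak, of 408, 409 and 408 bp in PROLIF and 295, 437 and 428 bp in DIFF, at percentiles of 77.1, 79.6 and 74.5 in PROLIF and 87.2, 82.2 and 85.0 in DIFF. The rank of *Mcm2* was higher in every DIFF library, while its fold enrichment overlapped between the states (log2 difference 0.09 ± 0.15 SE, limma adjusted p = 0.857).

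*Mcm7* lies head to head with *Ap4m1* and carried one of the broadest peaks, of 1547 and 1534 bp in PROLIF replicates 1 and 2 and 1523, 1531 and 1563 bp in DIFF. In PROLIF replicate 4 the same stretch was called as separate peaks of 584 and 858 bp, so the lower width of this library comes from a split call. Its fold enrichment was 10.9, 8.57 and 7.58 in PROLIF and 7.09, 7.59 and 8.05 in DIFF (log2 difference -0.27 ± 0.12 SE, limma adjusted p = 0.370), and the states overlapped. *Mcm3* and *Mcm4* showed widths of 532 to 771 bp and 988 to 1145 bp.

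Among the ORC genes, *Orc4* had the broadest promoter peak of the 43 genes by the mean over the libraries, though *Mcm7* or *Fen1* was broader in 5 of the 6. The widths of *Orc4* were 1577, 1434 and 1228 bp in PROLIF and 1524, 1525 and 1480 bp in DIFF, with its divergent neighbour *Mbd5* starting 26 bp away. *Orc1*, the E2F-type match of which is shown above, was narrower in DIFF, with 1098, 955 and 788 bp in PROLIF and 771, 858 and 755 bp in DIFF, where the order of the states holds only after centring (log2 difference -0.29 ± 0.11 SE, limma adjusted p = 0.489). *Orc6* ranked at percentiles of 89.5, 81.0 and 84.9 in PROLIF and 92.7, 91.4 and 92.1 in DIFF. Its rank did not overlap between states and its fold enrichment did (log2 difference 0.16 ± 0.09 SE, limma adjusted p = 0.474). *Orc2* and *Orc5* also ranked higher in DIFF without overlap, by 1.37 and 5.75 percentile points in the mean.

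*Cdc6* had a short, intense peak at its start, of 577, 480 and 411 bp in PROLIF and 419, 477 and 253 bp in DIFF, at percentiles of 90.2 to 93.2 throughout. *Gmnn* showed a fold enrichment of 15.3, 13.4 and 12.2 in PROLIF and 11.3, 11.9 and 10.6 in DIFF, with every DIFF value below every PROLIF value (log2 difference -0.30 ± 0.08 SE, limma adjusted p = 0.155). Its percentile was 89.9, 86.9 and 88.1 in PROLIF and 85.9, 81.9 and 85.9 in DIFF, also without overlap. The width of *Gmnn* stayed between 758 and 870 bp, with overlapping states. *Cdt1* and *Orc3* lay at percentiles of 80.7 to 89.4 and 90.6 to 95.7.

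**Figure D4:**
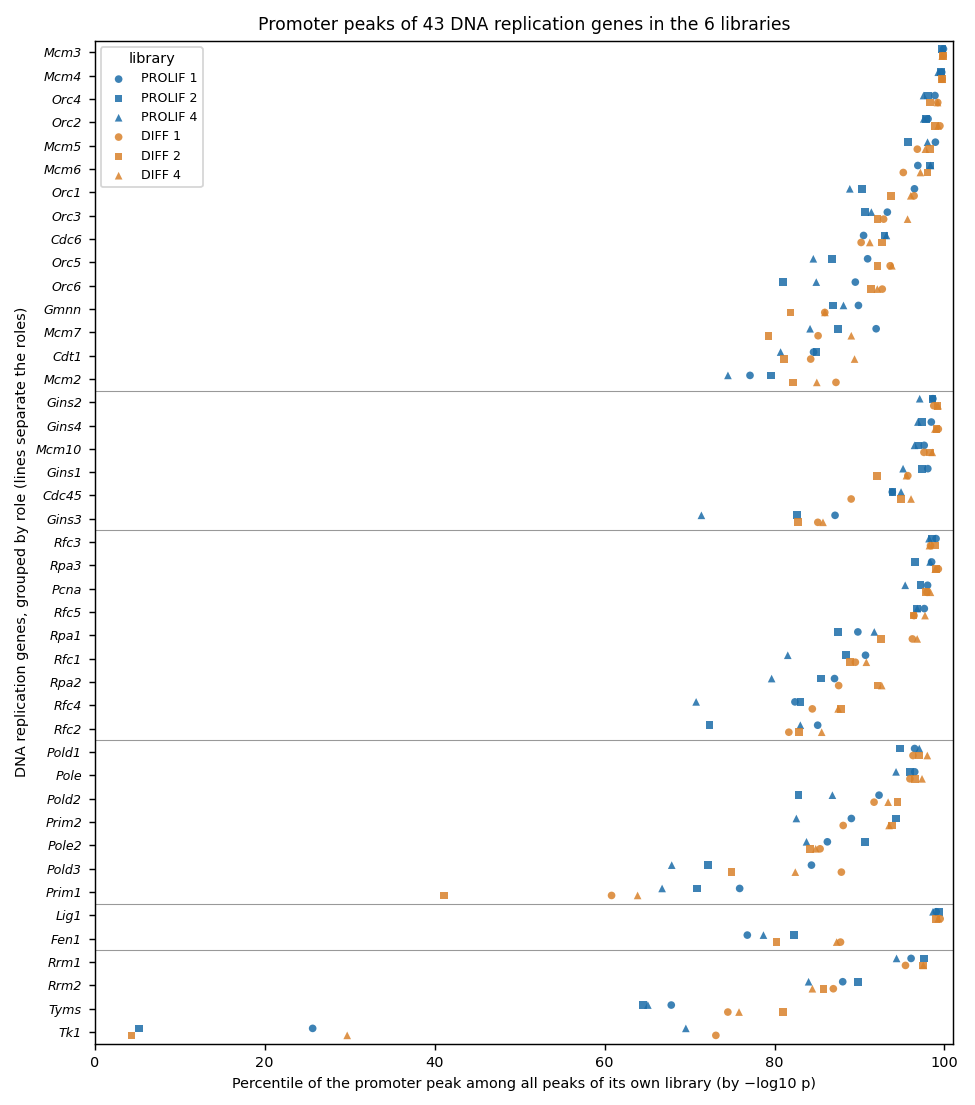
Percentile of the promoter peak of each gene among all peaks of its own library (horizontal axis), by role, with 1 point per library (blue PROLIF, orange DIFF; circle replicate 1, square replicate 2, triangle replicate 4). Most genes lie above 80 in every library; *Tk1* spreads from 4.34 to 73.1 and *Prim1* is lower in all DIFF libraries.

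The 6 genes of helicase activation were all narrower in DIFF by the fitted difference. *Cdc45* and the 4 GINS subunits complete the active helicase, and MCM10 acts at its activation. *Gins2* had widths of 850, 854 and 637 bp in PROLIF and 653, 583 and 584 bp in DIFF (log2 difference -0.40 ± 0.13 SE, limma adjusted p = 0.427). The value of PROLIF replicate 4, the shortest list, was below that of DIFF replicate 1, and the states separated only after centring. The fitted differences of the other 5 ranged from -0.20 at *Cdc45* to -0.04 at *Gins1*. Their ranks stayed high, with mean percentiles of 93.8 at *Cdc45*, 95.6 at *Gins1*, 97.6 at *Mcm10*, 98.3 at *Gins4* and 98.6 at *Gins2*, and 82.4 at *Gins3*.

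The clamp PCNA, the clamp loader subunits RFC1 to RFC5 and the single strand binding proteins RPA1 to RPA3 keep polymerases on the template and protect unwound DNA. *Pcna* had a promoter peak of 999, 898 and 859 bp in PROLIF and 823, 1039 and 943 bp in DIFF, at percentiles of 95.4 to 98.3, with overlapping states. A further peak was present in all 6 libraries past the 3′ end of the gene, with its summit 2385 to 2390 bp downstream of an internal transcript start, with fold enrichments of 11.0 to 14.5 over the 6 libraries and widths of 532 to 595 bp. On chromosome 2 it spanned 132247502 to 132248079 in PROLIF replicate 1, and the annotated gene, on the minus strand, ends at 132249162. The states overlapped in its fold enrichment.

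*Rfc4* ranked at percentiles of 82.4, 83.1 and 70.8 in PROLIF and 84.4, 87.8 and 87.5 in DIFF. The states did not overlap in rank, and the fold enrichment did not pass the test (log2 difference 0.12 ± 0.12 SE, limma adjusted p = 0.736). *Rfc2* carried the narrowest promoter peak by the mean over the libraries, though that of *Tk1* was narrower in 4 of the 6. The widths of *Rfc2* were 377, 324 and 321 bp in PROLIF and 212, 391 and 394 bp in DIFF, with a summit 29 to 36 bp downstream of its start. *Rfc3* and *Rfc5* stood at mean percentiles of 98.5 and 96.9. All 3 RPA genes ranked higher in DIFF without overlap, by 5.49 percentile points at *Rpa1*, 6.70 at *Rpa2* and 1.29 at *Rpa3*, a pattern also seen in 25.1% of all genes.

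Among the polymerase and primase genes, *Prim1*, the catalytic subunit of the primase that starts every new strand, had the lowest mean fold enrichment and the largest difference between the states. Its fold enrichment was 11.3, 9.14 and 7.80 in PROLIF and 6.26, 5.31 and 5.99 in DIFF. All DIFF values were below all PROLIF values (log2 difference -0.71 ± 0.15 SE), and the limma adjusted p over 14139 genes was 0.0736. The percentile was 75.9, 70.9 and 66.8 in PROLIF and 60.8, 41.1 and 63.9 in DIFF. The width, of 663, 362 and 354 bp in PROLIF and 444, 445 and 397 bp in DIFF, overlapped between the states, and the single promoter peak had its summit 21 to 60 bp downstream of the start in every library.

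*Prim1* was called lower in DIFF in 1 alternative, in which the highest fold enrichment among all promoter peaks of each gene was tested (log2 difference -0.70, limma adjusted p = 0.0127). As *Prim1* has a single promoter peak, its own fold enrichments were unchanged there. The lower adjusted p came with changed values of other genes and is not further evidence from *Prim1*. Over 13 alternatives the difference ran from -0.81 to -0.58 and the adjusted p from 0.0127 to 0.204, so that its direction did not change in any of them. The gene lies on chromosome 10 at 128015168 to 128030037. *Prim2*, the other primase subunit, had a peak of 1114 to 1348 bp at percentiles of 82.6 to 94.3, with overlapping states.

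The polymerase delta and epsilon genes showed no such difference. *Pold1* kept a peak of 543 to 577 bp in all 6 libraries, one of the steadiest widths, at percentiles of 94.8 to 98.0. *Pole*, the catalytic subunit of polymerase epsilon, stood at 94.3 to 97.4. *Pold3*, a subunit of polymerase delta, was lower and more spread, with percentiles of 84.3, 72.2 and 67.9 in PROLIF and 87.9, 74.9 and 82.4 in DIFF. *Pold2* and *Pole2* stood at mean percentiles of 90.2 and 85.8.

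*Fen1* and *Lig1* finish the lagging strand. *Fen1*, the flap endonuclease, shares its promoter with *Tmem258* and had a peak of 1696, 1465 and 1280 bp in PROLIF and 1179, 1245 and 1266 bp in DIFF. Every DIFF width was below every PROLIF width (log2 difference -0.30 ± 0.08 SE, limma adjusted p = 0.312). Its rank overlapped between the states, at percentiles of 76.8 to 82.3 in PROLIF and 80.2 to 87.8 in DIFF. *Lig1* ranked next after *Mcm3* and *Mcm4* of the 43 genes, at percentiles of 99.0, 99.3 and 98.6 in PROLIF and 99.5, 99.0 and 99.3 in DIFF.

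The nucleotide supply genes gave the widest range. Ribonucleotide reductase (*Rrm1*, *Rrm2*) makes deoxynucleotides, thymidylate synthase (*Tyms*) makes dTMP and thymidine kinase 1 (*Tk1*) salvages thymidine. *Rrm1* was steady, at percentiles of 94.4 to 97.6. *Rrm2* showed the largest width difference of the 43 genes, with 1029, 1324 and 1316 bp in PROLIF and 750, 942 and 922 bp in DIFF. Every DIFF width was below every PROLIF width (log2 difference -0.53 ± 0.16 SE, limma adjusted p = 0.389), while the fold enrichment overlapped between the states (-0.03 ± 0.14 SE). In PROLIF replicate 1 a stretch upstream of this peak (chr12:24707605-24707751) was called as a separate peak of 147 bp. The single peaks of PROLIF replicates 2 and 4 began at 24707650 and 24707647 and took in most of that stretch. No DIFF library had a peak there. The part of such merged calls in the width difference was not tested.

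A separate *Rrm2* peak with its summit 1253 to 1356 bp downstream of an internal transcript start went the other way. It was looked at after its values were seen and was not tested. Its width was 252, 220 and 334 bp in PROLIF and 458, 589 and 652 bp in DIFF, and its percentile 78.5, 69.4 and 69.5 in PROLIF and 74.9, 81.2 and 82.8 in DIFF. Every DIFF width of this peak was above every PROLIF width. When the widths of all promoter peaks of a gene were summed, the difference of *Rrm2* was -0.15 on the log2 scale.

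*Tyms* was the only replication gene besides *Prim1* and *Tk1* with a mean percentile below 75. Its percentile was 67.9, 64.5 and 65.1 in PROLIF and 74.5, 81.0 and 75.8 in DIFF, higher in every DIFF library. The fold enrichment was 9.06, 7.87 and 7.54 in PROLIF and 8.63, 12.9 and 8.27 in DIFF and overlapped between the states (log2 difference 0.23 ± 0.14 SE, limma adjusted p = 0.547).

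*Tk1* had the weakest promoter of the list and no stable peak at its start. The peak nearest to a start was 208, 138 and 678 bp wide in PROLIF and 774, 168 and 108 bp in DIFF, at percentiles of 25.7, 5.25 and 69.6 and of 73.1, 4.34 and 29.7. The spread came from which peak was nearest. In PROLIF replicates 1 and 2 the nearest peak covered an annotated start, and in DIFF replicates 2 and 4 it lay 191 and 13 bp from one. In PROLIF replicate 4 and DIFF replicate 1 no peak was called this close to a start. The nearest there was one whose summit lies 1085 and 1051 bp downstream. That downstream peak was present in all 6 libraries, with fold enrichments of 6.94, 5.95 and 6.82 in PROLIF and 6.11, 8.77 and 6.03 in DIFF and widths of 678 to 847 bp. The peaks nearer to the starts had fold enrichments of 2.55 to 3.40. The value of *Tk1* in the fits thus joins different peaks, and its SE of 0.91 on the log2 width scale was the largest of the 43 genes.

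Distal neighbours, peaks over 3 kb and up to 20 kb from the nearest start of a replication gene, numbered 82, 68 and 60 in PROLIF and 69, 76 and 86 in DIFF, in all 70.0 ± 11.1 and 77.0 ± 8.54 per library (SD, n = 3). The states overlapped. Per gene this was 1.91, 1.58 and 1.40 in PROLIF and 1.60, 1.77 and 2.00 in DIFF, close to the 1.93, 1.57 and 1.43 and the 1.74, 1.70 and 2.09 of all protein-coding genes. Over all genes the order of the libraries was that of the length of their lists, and for the replication genes it was the same but for DIFF replicates 1 and 2, which changed places.

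Fewer of these neighbours lay away from other genes. Those over 3 kb from every annotated transcript start numbered 36, 28 and 20 in PROLIF and 32, 39 and 44 in DIFF, or 0.465 to 1.02 per replication gene against 0.753 to 1.24 per protein-coding gene, and the value of the replication genes was the lower one in each of the 6 libraries. Between 8 and 17 of the 43 genes had no distal neighbour in a library, the fewest in DIFF replicate 4 and the most in PROLIF replicate 4. *Gins1*, *Gins3*, *Orc2*, *Orc5*, *Rfc3* and *Tyms* had none in any library. The share of all genes without a distal neighbour is not given here.

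*Mcm2* had the most, with 6, 3 and 4 neighbours in PROLIF and 5, 6 and 8 in DIFF. *Fen1* had 4, 5 and 3 in PROLIF and 4, 4 and 4 in DIFF, none of them over 3 kb from every transcript start. *Mcm5* had 4, 5 and 5 in PROLIF and 3, 3 and 3 in DIFF, of which 3, 4 and 4 and 2, 2 and 2 were away from any start. *Pold1* had 4, 4 and 3 in PROLIF and 4, 4 and 4 in DIFF. Of these 4 genes, *Mcm5* was the one whose counts did not overlap between the states. *Mcm10* had none in PROLIF and 1 in each DIFF library, and *Pcna* had 1 in each PROLIF and 2 in each DIFF library. *Rrm1* went the other way, with 2 in each PROLIF and 1 in each DIFF library. *Mcm10*, *Pcna* and *Rrm1* were named because their counts did not overlap. The share of all genes with such counts is not given here, so they are not read as a trait of the replication genes.

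**Figure D5:**
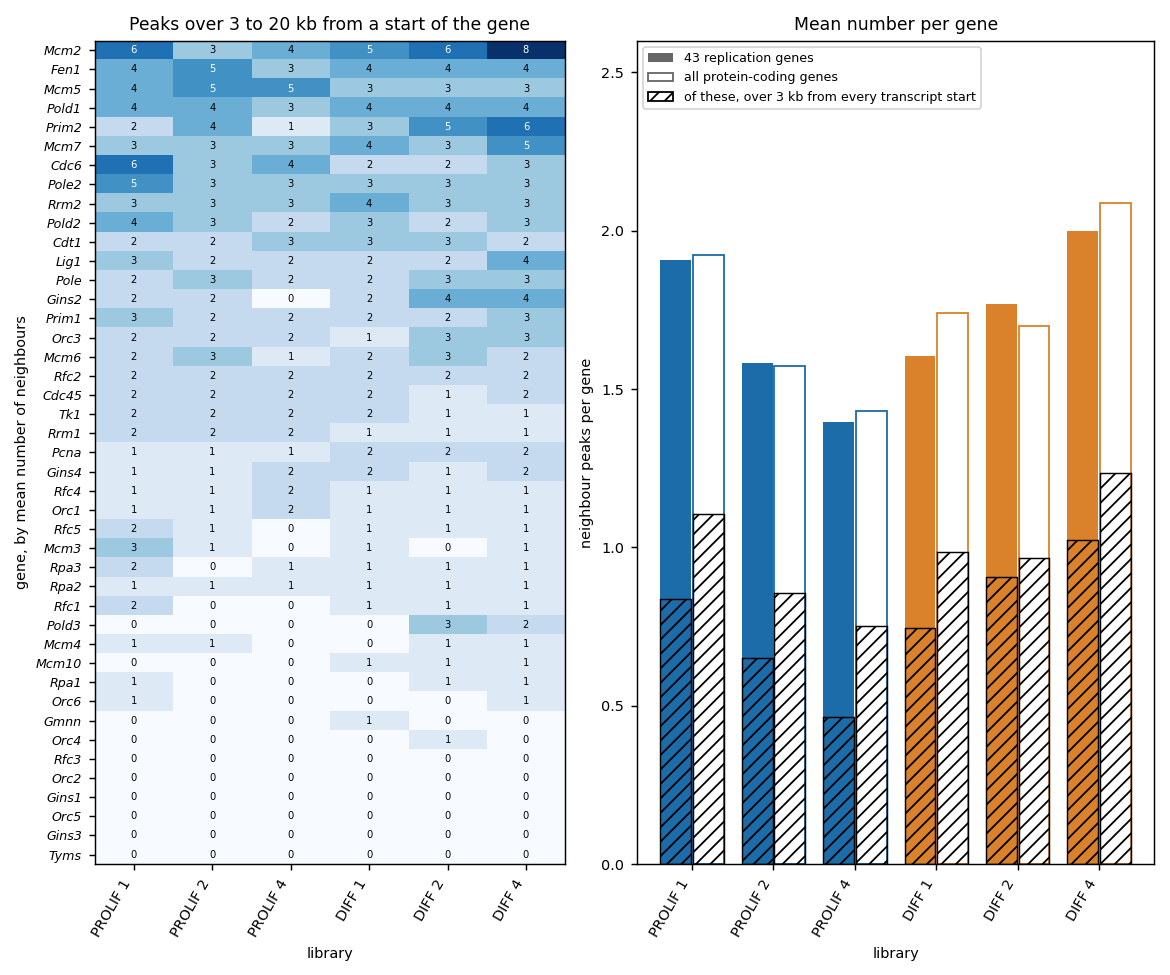
Left, number of peaks over 3 kb and up to 20 kb from the nearest start of each replication gene in each library; right, the mean number per gene for the 43 replication genes (filled) and all protein-coding genes (open), with the part over 3 kb from every transcript start hatched (blue PROLIF, orange DIFF). Filled and open bars are close in each library, and the hatched part is lower for the replication genes in all 6.

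When the peaks of the 6 libraries were merged into regions, 183 regions lay within 20 kb of a start of a replication gene. All 6 libraries had a peak in 91 of them (49.7%), beside 42.1% of 59771 regions within 20 kb of any protein-coding gene. A peak in all PROLIF and no DIFF libraries was found in 3 regions (1.64%, against 1.44%), and the reverse in 8 (4.37%, against 3.34%). The total of 11 was 17 without DIFF replicate 1 or without DIFF replicate 2 and 7 when only regions over 3 kb from every transcript start were counted.

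The PROLIF-only regions lay 14638 bp downstream of a start of *Mcm5* (chr8:75137705-75137981, percentiles of 23.1 to 51.8), 4977 bp downstream of one of *Cdc6* (chr11:98925443-98926038, 10.9 to 45.4) and 11042 bp upstream of *Cdc45*, inside *Ufd1* (chr16:18823029-18823267, 8.73 to 49.5). Their fold enrichments ran from 3.12 to 6.04. The DIFF-only regions reached percentiles of up to 69.6. The region with the highest minimum over its libraries lay 17018 bp upstream of *Pcna*, inside *Cds2* (chr2:132270332-132270573), with fold enrichments of 5.61, 6.82 and 6.85 in DIFF replicates 1, 2 and 4 and percentiles of 55.0 to 69.3.

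Next came regions 5472 bp downstream of a start of *Mcm10* (chr2:4987390-4987785, fold enrichments 5.18, 5.56 and 5.70), 1103 bp downstream of a start of *Rpa1* inside that gene (chr11:75340428-75341085, fold enrichments 4.53, 6.06 and 5.13) and 16727 bp upstream of *Mcm2* (chr6:88915507-88916026, fold enrichments 3.97, 6.96 and 6.50). Others lay 4299 bp upstream of a start of *Orc3* within the gene (chr4:34603050-34603594), 5283 bp downstream of a start of *Pole* (chr5:110338769-110339119) and 15537 bp downstream of a start of *Gins2* (chr8:120570268-120570671), with percentiles of 24.1 to 67.7. A further DIFF-only region near *Gins2* ranked lowest, at percentiles of 2.96 to 40.2. A peak missing from a list is a signal under the caller's threshold and not a measured absence.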

How the data were processed

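The material was 6 ATAC-seq peak lists from *Srr2* del/del cultures, 3 PROLIF and 3 DIFF. According to the study's methods, the authors removed adapters (Cutadapt) and low-quality ends (Trimmomatic, dropping reads under 20 bases), aligned the pairs by Bowtie2 to GRCm38, flagged duplicates in Picard, and ran MACS2 on each library in narrow mode, without a model, at an FDR of 0.05. Versions, read extension, a shift for the transposase and a blacklist are not given in the sources used here, and each can move peak edges and widths. The deposited score follows the −log10 q and was not used. The deposited fold enrichment is a ratio of summit signal to what MACS2 estimates as background around it. The reading of depth took a small constant as added to both, so that depth can move the ratio. The deposited −log10 p and −log10 q values served to rank and filter peaks within a list.

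Peaks were assigned to protein-coding genes of GENCODE M21 within 3 kb of a transcript start. The peak closest to a start, or the wider of equals, gave a gene its values. Log2 width and log2 fold enrichment were median-centred per library and fitted with limma 3.58.1 (R 4.3.3; eBayes with trend, Benjamini-Hochberg over 14139 genes). Assignment and fit were tested on simulated data or by direct search. Genes whose values are given per library were the extremes in rank, width and neighbours, the 4 largest differences in each direction among those whose states do not overlap, *Mcm2* to *Mcm7* and *Pcna*. One marker gene of the lists is not reported here. The genes and lists were chosen with earlier results of these data known. The label of the treatment speaks of RNA although the molecule is genomic DNA, and the series text gives 3 days for the proliferating cultures where the labels give 2.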

Additional observations from a re-analysis of the deposited data

How the results depend on the processing

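No median difference between the states over the replication genes, and no difference in their distal neighbours, changed direction under the alternatives run. Of the recomputed values of the comparisons, 20 moved past the limits set for them. The alternatives were peaks of q at most 0.01, lists of equal length (60006 peaks), a 1 kb window, quantile normalization, all promoter peaks of a gene, genes with a peak in at least 2 libraries of each state, a replicate block, other distal limits and leaving out each library. The cause of the moves was not tested. With all promoter peaks of a gene the median log2 width difference was -0.081, and 1 replication gene, *Prim1*, was lower in fold enrichment (-0.70, limma adjusted p = 0.0127). The fold enrichments of *Prim1* itself were unchanged in that alternative. Without 1 library, the median ran from -0.118 to -0.088 (without DIFF replicate 1) for width and from 0.013 (without DIFF replicate 1) to 0.061 (without DIFF replicate 4) for fold enrichment, and the regions of 1 state only from 12 to 17 (17 without DIFF replicate 1 or 2). They numbered 7 away from every transcript start. The difference in distal neighbours, 7 more per library in DIFF, was within the spread between libraries and ran from 2 (without PROLIF replicate 4) to 13 (without PROLIF replicate 1), with 2.67 in lists of equal length and 2.5 without DIFF replicate 4. Counts of genes whose states do not overlap under other settings were added after the data were seen. Wider in DIFF there were 2 with all promoter peaks (9.34% of all genes). Without 1 library there were 0 to 3 wider (11.0% to 14.4% of all genes), 10 to 13 narrower (13.1% to 15.8%), 12 to 22 higher in percentile (26.7% to 46.2%, both highest without PROLIF replicate 1) and 2 to 5 lower (5.07% to 9.93%). Without DIFF replicate 2 the share higher in percentile was below that of all genes, at 32.6% against 36.1%. The share lower in percentile was below it in several settings, such as without PROLIF replicate 2 (4.65% against 6.34%). The block changed no call on a replication gene.

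Whether a replicate number pairs the samples is not known. Deviations of same-numbered libraries correlated by 0.00 to 0.05 in width and by -0.03 to 0.09 in fold enrichment. Those of differently numbered libraries correlated by -0.04 to 0.02 and by -0.06 to 0.06. With so few libraries per state, such values cannot tell whether a number marks the same culture. With the replicate block, the median log2 width difference of the replication genes was -0.13, no replication gene was called, and over all genes the calls went from 9 wider and 16 narrower to 0 and 2. Over all genes, all promoter peaks of a gene raised the calls in fold enrichment from 22 higher and 56 lower to 119 and 273, and in width to 32 and 34, and without 1 library they ran from 0 to 11 wider, 3 to 11 narrower, 6 to 35 higher and 11 to 44 lower. Libraries differed in depth, with 2.85 to 6.01 background reads, and its part in the widths and fold enrichments was not tested.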
